A study of Mus musculus with 48 samples.

Results

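RNA-seq libraries of differentiating white preadipocytes at day 3 were compared between DKO and WT cells. The comparison uses 6 of the 48 libraries of the series, 3 from DKO and 3 from WT cells, and takes in every gene that passed a filter on low counts, which was 15120 of the 55450 genes in the table. The cells were primary preadipocytes from inguinal white adipose tissue (iWAT) of C57BL/6 mice aged 8 to 12 weeks, and the DKO mice carry inactivated copies of both Hmgn1 and Hmgn2. All cultures, WT and DKO alike, had received rosiglitazone at 1 μM, T3 at 1 nM, IBMX at 0.5 mM, dexamethasone at 5 μM and insulin at 0.5 μg/ml, a mixture given for 4 days and then replaced by insulin and T3, so day 3 falls inside the first medium. The knockout is constitutive, so the DKO cells lacked both genes in the animal as well as in culture. The sources used here do not say which animal each culture came from or whether animals were pooled, and the p-values therefore measure the spread between these libraries. Both genotypes were also sequenced at days 0, 6 and 9, and mouse embryonic fibroblasts (MEFs) of the same genotypes at days 0, 4, 8 and 12.

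HMGN1 and HMGN2 belong to a family of small, abundant chromatin proteins that attach to the nucleosome core and compete there with linker histone H1. Preadipocytes are fibroblast-like cells that, on a hormonal signal, first switch on C/EBP factors and then Pparg and Cebpa, which turn on the genes of lipid storage. IBMX raises cyclic AMP, dexamethasone acts on the glucocorticoid receptor, rosiglitazone is a ligand of PPARγ, and T3 is thyroid hormone, so the mixture reaches several of these steps at once. Beige adipocytes are those that, in white fat, take on mitochondria and heat-producing genes as brown fat does. Bulk RNA cannot tell a larger share of differentiated cells from more transcript per cell.

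Summed counts per library ranged from 20746767 to 27594628 in WT, with a median of 21578729, while the DKO libraries held between 23935749 and 28673030, with a median of 25066202. Counts were scaled with TMM and given as CPM, a level relative to the library's total, and each gene was tested with edgeR's quasi-likelihood test, and the p-values were adjusted by Benjamini-Hochberg. Called genes are those with an adjusted p under 0.05 that also differ 1.5-fold or more. The p-values given below are from this test, and fold changes are of DKO over WT. Of the WT libraries, replicate 1 stood apart in its adipocyte markers. The summed level of 9 such genes was 764, 2937 and 2099 CPM in WT replicates 1, 2 and 3 and 3851, 5411 and 4736 CPM in DKO replicates 1, 2 and 3, so the groups did not overlap but WT replicate 1 lay far below the other WT libraries. The main counts of adipocyte genes are therefore also given without it, a choice made after the data were seen. A gene without overlap stays so when a library is left out. Counts without overlap therefore cannot fall in this way, and an unchanged count is no check on that library.

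Hmgn2 (chromosome 4, 133964738 to 133968650, GRCm38/mm10, minus strand) stood at 95.0, 125 and 146 CPM in the WT libraries and at 0.358, 0 and 0 CPM in the DKO libraries, where the highest count was 10. Hmgn1 (chromosome 16, 96120618 to 96127729, minus strand) had 162, 165 and 185 CPM in WT and 90.8, 103 and 107 CPM in DKO libraries. Its log2 fold change was -0.77 ± 0.09 (± the standard error, here and below; adjusted p = 0.0384). Hmgn1 was not called in any of the 6 refits that leave out 1 library, with an adjusted p of up to 0.241. Counts per gene do not show which exons the remaining Hmgn1 reads came from. Hmgn3 and Hmgn5, the other tested members of the family, were not called.

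At day 3, 51 genes were called, which is 0.337% of those tested, with 25 higher (0.165%) and 26 lower (0.172%) in DKO cells. The median log2 fold change over all tested genes was -0.01. At an unadjusted p-value under 0.05 there were 1122 higher and 716 lower genes. For 11.1% of tested genes every DKO library exceeded every WT library, and for 7.47% every one was below, and all 51 called genes were among those without overlap. DESeq2 called 275 genes higher (1.82%) and 133 lower (0.88%), and all 51 genes were called by it too. A single edgeR fit over the 24 preadipocyte libraries called 292 higher (1.73%) and 104 lower (0.616%), including 50 of the 51, the exception being Egr1 (adjusted p = 0.481). Leaving out 1 library lowered the number to between 13 and 28, fewest without DKO replicate 2, and 12 genes were called in all 6 refits. These were Apoe, H2-T22, H2-T23 and Gm45104 among the higher genes and Hmgn2, H2-T10, BC023719, AC154457.3, Gm8730, Gm9625, Gm14165 and Gm21596 among the lower ones. Protein-coding genes made up 32 of the 51 and pseudogenes 16. Pseudogenes were 31.4% of called and 8.71% of tested genes.

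Apoe and Apoc1 showed the largest rises among protein-coding genes. They are neighbours on chromosome 7 and encode apolipoproteins, ApoE being the protein through which lipoprotein remnants are taken up by cells and a product of adipocytes and macrophages alike. Apoe (19696109 to 19699188, minus strand) was at 32.7, 27.4 and 34.5 CPM in WT and at 639, 997 and 908 CPM in DKO libraries. Every DKO library was thus far above every WT library, with a log2 fold change of 4.75 ± 0.21 (adjusted p = 0.00091). Apoc1 (19689481 to 19692660, minus strand) was at 0.0481, 0.464 and 0.464 CPM in WT and at 21.8, 21.1 and 12.6 CPM in DKO libraries, a log2 fold change of 5.76 ± 0.53 (adjusted p = 0.0172). The largest WT count of Apoc1 was 13, and the gene was called in 2 of the 6 refits, with an adjusted p of up to 0.129. Pvr (19903578 to 19921160), a cell adhesion receptor gene of the same stretch, moved the other way, at 59.8, 64.2 and 51.8 CPM in WT and 30.9, 33.6 and 34.5 CPM in DKO libraries (log2 fold change -0.83 ± 0.10, adjusted p = 0.0384). It was called in 1 of the 6 refits.

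Macrophages are another source of Apoe, so their markers were looked at in the same libraries. None of the 11 tested markers of 13 was called or free of overlap, and their summed level was between 79.9 and 294 CPM in WT and between 68.7 and 255 CPM in DKO libraries. With 1 scaling over all 24 libraries, mean Apoe in WT cells was 29.6 CPM at day 0, 29.1 CPM at day 3, 465 CPM at day 6 and 298 CPM at day 9, against 233, 776, 1136 and 842 CPM in DKO cells. The DKO value thus already stood above the WT value before the medium was added, although the day 0 difference of 2.98 (log2) was not called. Its effect at day 3 was larger than that at day 6 by 3.49 ± 0.46 (log2, adjusted p = 0.02, interaction of genotype and day). For Apoc1 the same difference was 3.18 ± 0.53 (adjusted p = 0.0413). In MEFs the Apoe effect lay between -0.57 and 0.53 (log2) at the 4 days and was called at none of them. The Apoc1 effect was 10.4 (log2) at day 0 of preadipocytes, not called (adjusted p = 0.0563), and was called at days 6 and 9 (2.58 and 1.29). Apoc1 was also called higher in MEFs at day 12 (0.69, adjusted p = 1.5e-07) and at no other MEF day.

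**Figure D1:**
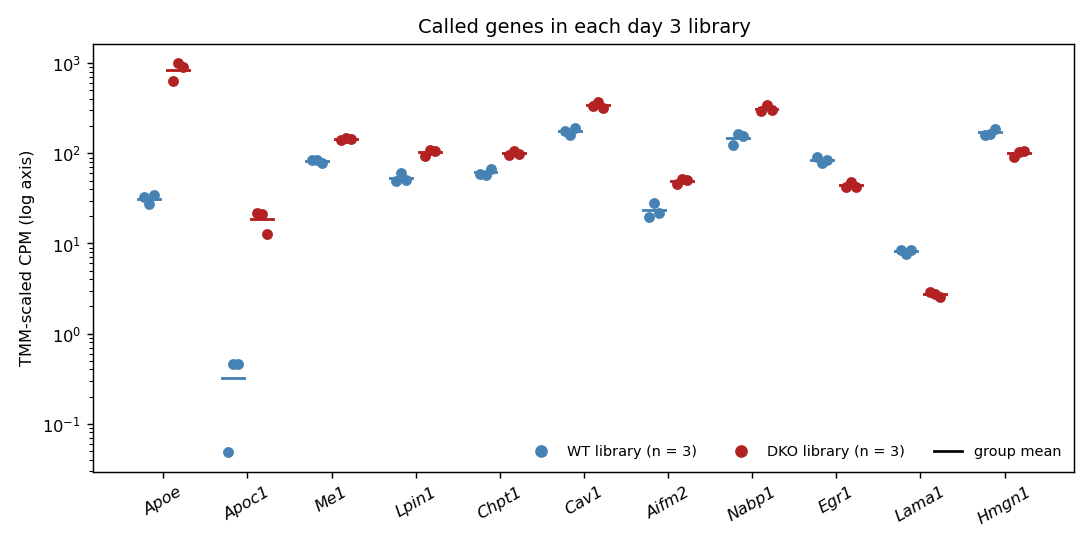
TMM-scaled CPM (log axis) of 11 called genes in the 3 WT (blue) and 3 DKO (red) day 3 libraries, with horizontal lines at the group means. The groups do not overlap for any gene shown, and the gap is widest for Apoc1 and Apoe (WT at or below 34.5 CPM, DKO at or above 639 CPM for Apoe).

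Enzymes of lipid synthesis were also among the genes that rose. Me1 makes the NADPH used to build fatty acids and is a classical thyroid hormone target. It was at 84.4, 83.9 and 78.2 CPM in WT and at 142, 149 and 144 CPM in DKO libraries, with a spread within each group far smaller than the difference (log2 fold change 0.82 ± 0.07, adjusted p = 0.00707). Of the 50-base runs in Me1 transcripts 22.9% also occur in the gene model Gm7049. Lpin1, the phosphatidate phosphatase that supplies diacylglycerol for triglycerides, was at 48.9, 60.3 and 50.7 CPM in WT and 94.4, 110 and 106 CPM in DKO libraries (log2 fold change 0.95 ± 0.11, adjusted p = 0.0304). Chpt1 uses diacylglycerol to make phosphatidylcholine and had 58.9, 57.4 and 67.8 CPM in WT and 96.8, 106 and 99.4 CPM in DKO libraries (log2 fold change 0.71 ± 0.09, adjusted p = 0.0384). Of these 3, Me1 was called in 3 of the 6 refits, Lpin1 in 1 and Chpt1 in 0, with adjusted p of up to 0.0779, 0.203 and 0.241. Their day 0 effects were -0.04, 0.29 and -0.03 (log2), but the difference between the days was not called for any of them (adjusted p = 0.0954, 0.571 and 0.292). In MEFs at day 12 all 3 were called higher, at 0.71, 0.67 and 0.83 (log2).

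Of the 3 promoters of these enzymes, those of Me1 and Lpin1 each hold a motif and are shown, from 250 bases before to 50 bases after the annotated start (RefSeq, GRCm38.p6). The capitals mark AGGTCA, the core site read by many nuclear receptors, or TGACTCA, the AP-1 site, on either strand. Each window holds 1 match, so no motifs overlap. Me1 lies at chr9:86695865-86696164 (minus strand) and Lpin1 at chr12:16610917-16611216 (minus strand).
Me1: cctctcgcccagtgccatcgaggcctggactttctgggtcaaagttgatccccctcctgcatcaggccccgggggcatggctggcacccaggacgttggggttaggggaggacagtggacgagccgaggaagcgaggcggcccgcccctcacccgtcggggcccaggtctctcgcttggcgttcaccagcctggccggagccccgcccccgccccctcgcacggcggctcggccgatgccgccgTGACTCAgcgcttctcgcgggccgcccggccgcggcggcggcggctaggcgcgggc
Lpin1: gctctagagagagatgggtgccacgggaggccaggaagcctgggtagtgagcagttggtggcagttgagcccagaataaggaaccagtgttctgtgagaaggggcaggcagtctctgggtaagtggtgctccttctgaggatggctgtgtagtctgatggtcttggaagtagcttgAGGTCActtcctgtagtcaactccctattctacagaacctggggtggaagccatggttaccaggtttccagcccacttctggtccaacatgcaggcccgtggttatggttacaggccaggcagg

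Of the 25 genes called higher, 19 had a promoter in this set, and 6 of these held AGGTCA (31.6%) against 16.0% of all 27025 promoters and 11.7% of the promoters of tested genes. Besides Lpin1 these were H2-T23, Clec16a, Arl4a, Idua and Aifm2. The AP-1 site was in 1 of the 19 promoters, that of Me1, against 5.17% of all promoters. Neither motif was in any of the 5 promoters available for genes called lower. The Apoe and Chpt1 promoters held neither. A match describes these letters only.

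Genes of other roles were called higher as well. Cav1, the main structural protein of caveolae, was at 177, 161 and 189 CPM in WT and 338, 374 and 320 CPM in DKO libraries (log2 fold change 0.97 ± 0.10, adjusted p = 0.0187). Aifm2, also known as FSP1, which reduces coenzyme Q at membranes and guards against lipid peroxidation, was at 19.6, 28.3 and 21.9 CPM in WT and 45.8, 52.4 and 51.3 CPM in DKO libraries (1.10 ± 0.15, adjusted p = 0.0495). Coq2, an enzyme of coenzyme Q synthesis, was at 20.2, 17.3 and 17.8 CPM in WT and 39.8, 39.5 and 39.6 CPM in DKO libraries (1.11 ± 0.08, adjusted p = 0.00467). Coq2 was called in 5 of the 6 refits, Aifm2 in 1 and Cav1 in 0. The small GTPase gene Arl4a had a log2 fold change of 1.08 ± 0.12 (adjusted p = 0.0318), Smoc1, a secreted matricellular protein gene, 1.35 ± 0.13 (adjusted p = 0.0183), and Fgfrl1, an FGF receptor-like gene without a kinase domain, 0.75 ± 0.07 (adjusted p = 0.0172). Clec16a, which takes part in the clearance of mitochondria, reached 0.74 ± 0.07 (adjusted p = 0.016).

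Nabp1 encodes a single-stranded DNA-binding protein and was the one gene called at day 3 whose effect also differed from that at day 0. It was at 123, 165 and 155 CPM in WT and 295, 345 and 303 CPM in DKO libraries at day 3, with a difference of 1.09 ± 0.13 (log2, adjusted p = 0.0384), and every DKO library was above every WT library. At day 0 its effect was -0.51 (log2), and the difference between the days, 1.57 ± 0.17, was called (adjusted p = 0.0272). No gene was called in this interaction when libraries of the same genotype and replicate number were blocked across the days. The call at day 3 was lost in all 6 refits (adjusted p up to 0.232). The remaining genes called higher were Tmed5, a cargo receptor of the secretory path, Idua, a lysosomal enzyme, Gatc, a subunit of the mitochondrial amidotransferase, Lyrm7, an assembly factor of complex III, and Map7d2, a microtubule-binding protein, with log2 fold changes between 0.72 (Tmed5) and 1.67 (Lyrm7), besides genes of the copy families and of the H2-T region described below.

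Among protein-coding genes without close copies, those called lower were few. Egr1, an immediate-early transcription factor, was at 90.9, 79.0 and 84.8 CPM in WT and 42.3, 48.4 and 42.0 CPM in DKO libraries (log2 fold change -0.94 ± 0.09, adjusted p = 0.0161). Lama1, a laminin chain, was at 8.42, 7.56 and 8.49 CPM in WT and 2.90, 2.76 and 2.54 CPM in DKO libraries (-1.57 ± 0.14, adjusted p = 0.0131). Both genes had tight groups that lay well apart, yet Egr1 was called in 0 and Lama1 in 1 of the 6 refits. Hs3st1, a heparan sulfate sulfotransferase, had -0.81 ± 0.10 (adjusted p = 0.0407), and Pop1, a subunit of RNase MRP and P, had -0.60 ± 0.08 (adjusted p = 0.0495). Galnt9, a glycosyltransferase, varied within WT, at 30.5, 13.7 and 11.4 CPM, and was at 1.07, 0.545 and 0.476 CPM in DKO libraries (-4.70 ± 0.54, adjusted p = 0.0384). It was called in 1 of the 6 refits.

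Many called genes share sequence with another gene, and RSEM divides reads that match both. Of the 51, 34 shared at least 1 run of 50 bases, the read length, with a transcript of another gene in GENCODE M21, and 12 shared at least 50% of their runs. Some of the 34 shared few runs, such as 0.2% in Lyrm7 and 0.6% in Clec16a. The same shares were not computed over all tested genes, so these counts have no background. The largest group of called genes that share sequence is that of Rplp0, which encodes the ribosomal stalk protein P0, and its processed pseudogenes. Shown are 120 coding bases of Rplp0 (383 to 502 of 954, counted from the start codon) and the same stretch of Gm8730 and Gm9625, with bases that differ from Rplp0 in capitals (GENCODE M21, GRCm38).
Rplp0: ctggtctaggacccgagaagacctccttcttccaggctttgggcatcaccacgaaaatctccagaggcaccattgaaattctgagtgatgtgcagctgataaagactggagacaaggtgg
Gm8730: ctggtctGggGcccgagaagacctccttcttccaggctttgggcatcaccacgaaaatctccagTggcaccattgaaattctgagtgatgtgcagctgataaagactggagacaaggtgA
Gm9625: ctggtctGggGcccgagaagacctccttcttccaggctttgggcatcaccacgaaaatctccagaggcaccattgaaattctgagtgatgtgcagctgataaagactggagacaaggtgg

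Over the whole coding sequence Gm8730 (chromosome 8, 102864845 to 102865798) differs from Rplp0 at 12 of 954 bases, and the longest run without a difference is 170 bases. Gm9625, annotated with 955 bases, differs at 98 of 954 when compared base by base without gaps, so the stretch shown is not typical of it. Gm8730 had 763, 800 and 778 CPM in WT and 47.1, 46.0 and 47.4 CPM in DKO libraries (log2 fold change -4.06 ± 0.08, adjusted p = 1.3e-05), the smallest p-value of the comparison. Gm9625 had 176, 199 and 176 CPM in WT and 31.8, 30.2 and 27.8 CPM in DKO libraries (-2.62 ± 0.09, adjusted p = 0.00024). Rplp0 itself moved the other way, from 1348, 1386 and 1360 CPM in WT to 2505, 2563 and 2454 CPM in DKO libraries (0.88 ± 0.09, adjusted p = 0.0183). Gm14165, a further copy, was lower in DKO cells (-1.26 ± 0.09, adjusted p = 0.00433). Summed over the 4 genes, the level was 2306, 2404 and 2333 CPM in WT and 2592, 2647 and 2537 CPM in DKO libraries, a ratio of 1.10. The sums did not overlap, and the exact permutation test on them gave p = 0.1 (two-sided), the smallest value 3 against 3 libraries allow. How reads were divided between these genes was not tested.

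**Figure D2:**
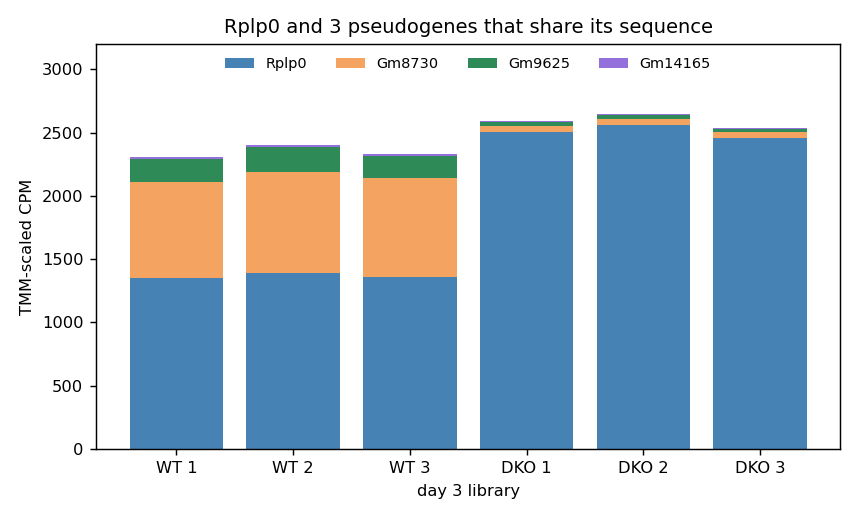
Stacked TMM-scaled CPM of Rplp0 and the pseudogenes Gm8730, Gm9625 and Gm14165 in each day 3 library (3 WT and 3 DKO, 1 bar each). The bars differ little in height, between 2306 and 2647 CPM, while the share of the pseudogenes is large in WT and small in DKO libraries.

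Smaller families also held called copies. Gm21596 and Gm45315, copies of Hmgb1, were lower in DKO cells. Gm21596 fell by 3.59 on the log2 scale, and Gm45315 was at 0 in each DKO library, at least 77.5-fold lower against a floor of 3 counts per library, while Hmgb1-ps2 rose by 2.10. Together with Hmgb1 they summed to 264 ± 36.7 CPM in WT libraries (mean ± SD, n = 3) against 269 ± 32.9 CPM in DKO libraries (exact permutation p = 0.9). In WT libraries Gm21596 and Gm45315 averaged 13.3 and 9.09 CPM, while the SD of Hmgb1 itself was 33.8 CPM. This sum therefore cannot show where their reads went. Gm1821 and Gm8797, which share most of their runs with the ubiquitin gene Ubb, fell by 2.19 and 2.78 on the log2 scale, and the sum with Ubb was 981 ± 149 and 1099 ± 95.1 CPM (exact permutation p = 0.5). Gm3375, a copy of the proteasome gene Psmb5, rose by 3.11 from 2.07, 2.78 and 2.03 to 10.7, 24.9 and 23.7 CPM, and the sum with Psmb5 was 71.3 ± 1.45 and 80.7 ± 5.89 CPM (exact permutation p = 0.1). AC115117.1, a copy of Osgep, rose by 4.25, and AC154457.3, a copy of Mrps10, fell by 3.70, while the sums with the parent gene differed by a ratio of 1.04 and 1.03. AC115117.1 averaged 2.75 CPM in DKO libraries, where the SD of Osgep was 3.04 CPM, so the Osgep sum has the same limit. How reads were divided within these families was not tested. Mid1-ps1, a copy of Mid1 on chromosome Y, fell by 4.82, while its sum with Mid1 was 43.7 ± 6.9 CPM in WT and 52.4 ± 1.2 CPM in DKO libraries (exact permutation p = 0.1). The NKG2D ligand gene Raet1d fell by 1.27. The sum of Raet1d and its relative Raet1e was also lower in DKO cells, at 11.3 ± 2.61 against 21.8 ± 1.37 CPM (exact permutation p = 0.1). Of the pseudogenes with few shared runs, Gm6368 fell by 1.71 on the log2 scale, while Gm5340 and Gm8199, with at most 1 count in a DKO library, were at least 10.2-fold and 8.03-fold lower against the floor.

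A pair of copies belongs to Hmgn2. Gm10182, a processed pseudogene on chromosome 9, is identical to the coding sequence of Hmgn2 at all 273 bases, which is why it is shown.
Gm10182: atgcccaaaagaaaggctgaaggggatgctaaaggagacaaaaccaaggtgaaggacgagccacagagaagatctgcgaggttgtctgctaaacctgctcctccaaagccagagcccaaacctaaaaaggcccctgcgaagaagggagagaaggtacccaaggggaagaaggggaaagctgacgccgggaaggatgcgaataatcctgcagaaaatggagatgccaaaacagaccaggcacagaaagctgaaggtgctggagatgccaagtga

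Gm10182 had 2.40, 4.87 and 3.71 CPM in WT libraries and no count in any DKO library. Gm10282, which shares 74.0% of its 50-base runs with other genes, most of them with Hmgn2, had 6.40, 11.7 and 11.7 CPM in WT and no count in DKO libraries. Both were lower in DKO cells, at least 31.2-fold for Gm10182 and 84.8-fold for Gm10282 against the floor of 3 counts per library. Reads of Gm10182 cannot be told apart from those of Hmgn2 by sequence.

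A run of called genes lies in the MHC region of chromosome 17, where 5 of the 6 tested genes between 35994453 and 36121465 were called. Over all tested genes the share was 0.337%. The stretch was delimited by the called genes themselves, so its share is a description. H2-T22 and H2-T23 encode nonclassical MHC class I proteins, H2-T23 being the mouse Qa-1 molecule that is recognised by receptors of natural killer cells. H2-T22 was at 3.99, 3.15 and 2.39 CPM in WT and 34.6, 41.3 and 39.3 CPM in DKO libraries (log2 fold change 3.60 ± 0.19, adjusted p = 0.0021). H2-T23 was at 4.57, 3.80 and 2.75 CPM in WT and 25.3, 22.5 and 23.1 CPM in DKO libraries (2.68 ± 0.19, adjusted p = 0.00433). H2-T10 went the opposite way, at 11.2, 14.2 and 11.1 CPM in WT and 0.680, 1.09 and 0.555 CPM in DKO libraries (-3.97 ± 0.27, adjusted p = 0.00433). H2-T10 and H2-T22 share 50-base runs with each other. Their sum was 15.3 ± 1.96 CPM in WT libraries and 39.2 ± 3.58 CPM in DKO libraries (exact permutation p = 0.1, the smallest value possible here). Runs of H2-T22 occur in 29 other genes and those of H2-T10 in 20, so this sum leaves out other genes that share sequence. How reads were divided between them was not tested. The antisense genes BC023719 and A930015D03Rik of the same region were lower in DKO cells, BC023719 with no count in any DKO library and at least 77.8-fold lower against the floor. In MEFs of the same genotypes H2-T10, H2-T22 and H2-T23 had log2 fold changes between -0.45 and 0.05 and were called at no day. The other MHC class I and proteasome genes of the list were not called.

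The positions of the called genes were compared with those of the deleted loci and with each other. Within 10 Mb of Hmgn1, 1 of 71 tested genes was called, and within 10 Mb of Hmgn2, 1 of 245, in each case the deleted gene itself. On chromosome 5, 7 genes (Coq2, Tmed5, Idua, Fgfrl1, Galnt9, Gatc and Rplp0) were called among the 144 tested between 100654723 and 115563727, which is 4.86% against 0.337% over all genes. On chromosome 7, 7 genes (Gm3375, Gm5340, Gm45315, Gm45104, Apoc1, Apoe and Pvr) were called among 173 tested between 3181093 and 19921160 (4.05%). These stretches were delimited by the called genes themselves, so the shares are descriptions. Gm45104, a gene model of chromosome 7 with no assigned class, had at most 2 counts in WT libraries and 11.7, 11.2 and 12.3 CPM in DKO libraries, at least 90.1-fold higher against the floor.

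The 51 genes were followed into the other days and into MEFs, whose libraries are separate from those of day 3. In preadipocytes, 23 of 50 tested were called in the same direction at day 0 (0.218% of all tested genes were called there), 35 of 48 at day 6 (11.6%) and 29 of 48 at day 9 (1.24%). In MEFs, 10, 11, 7 and 31 of 47 were called in the same direction at days 0, 4, 8 and 12, where 0.102%, 0.0905%, 0.0595% and 7.98% of tested genes were called. None was called in the opposite direction anywhere. Of the 51, 26 were called at another preadipocyte day and in MEFs, 11 at another preadipocyte day only, 6 in MEFs only and 8 nowhere else. The first set includes Hmgn2 with its copies, the Rplp0 pseudogenes, Gm45104, Coq2, Clec16a, Tmed5, Idua and Lyrm7, and also Me1, Lpin1 and Aifm2. The second includes H2-T10, H2-T22, H2-T23, BC023719 and the Ubb copies. In this second set BC023719 and AC154457.3 were not tested at any MEF day. The 8 genes called in no other comparison were Apoe, Fgfrl1, Cav1, Map7d2, Lama1, Egr1, Gm5340 and Gm8199. Gm5340 was tested elsewhere only at day 0 of preadipocytes and Gm8199 only at day 8 of MEFs. A call at 1 day and none at another does not show that the effect differs.

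**Figure D3:**
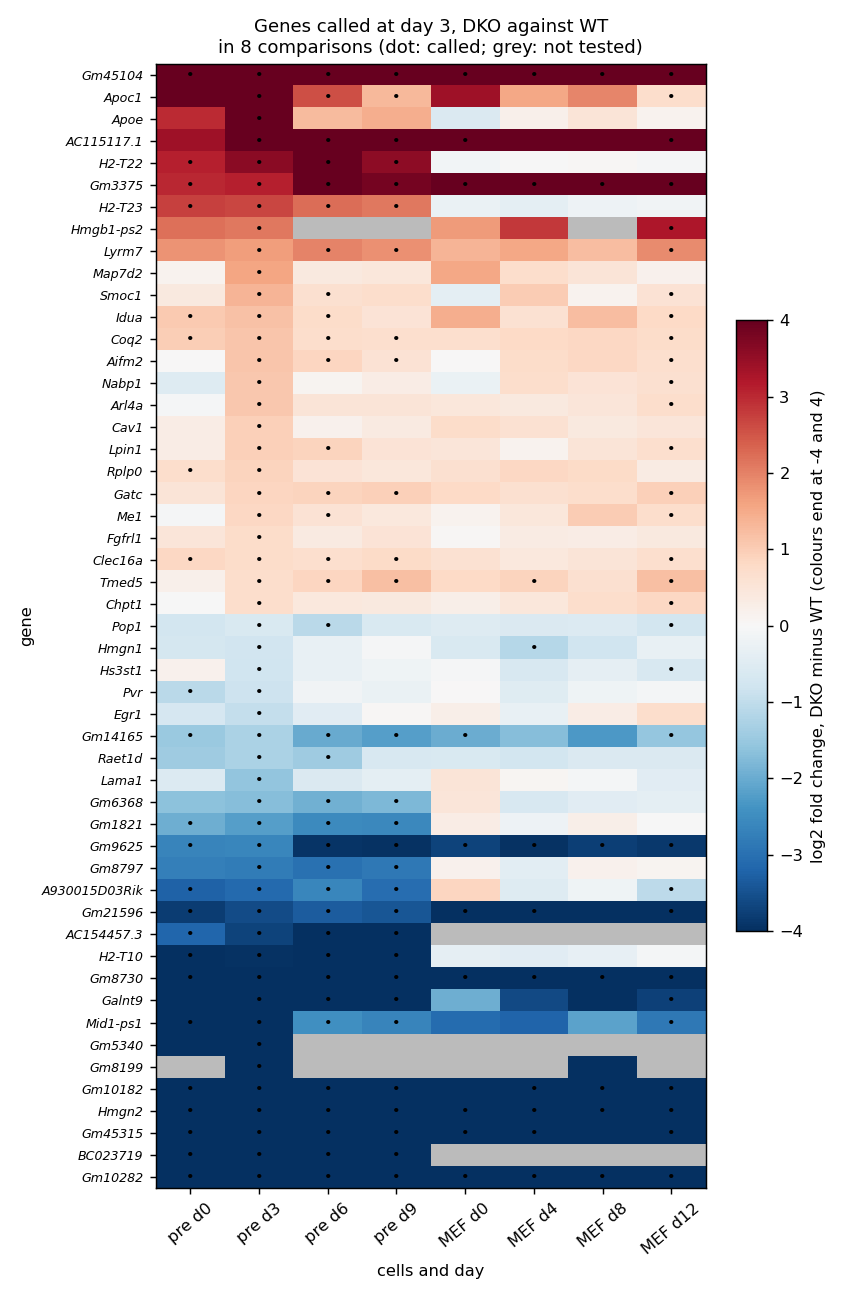
Log2 fold change (DKO minus WT, colours end at -4 and 4) of the 51 genes called at day 3, 1 row each, in the 4 preadipocyte days and 4 MEF days. Dots mark calls and grey marks genes not tested. The H2-T genes are strongly coloured at all 4 preadipocyte days and pale in MEFs, while Gm8730, Gm45104 and Hmgn2 keep their colour in all 8 comparisons.

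The difference in the DKO effect between days was tested directly with an interaction of genotype and day. Against day 0, 2 of 15999 genes were called (0.0125%), Nabp1 and Psmd8. Psmd8, a proteasome lid subunit, was lower in DKO cells at day 0 (log2 -0.93) and stood at -0.20 at day 3, a difference of 0.70 ± 0.08 (adjusted p = 0.0272). Against day 6, 51 of 15976 genes were called (0.319%), 29 with a more positive effect at day 3 and 22 with a more negative one. Among them are Col1a2, a chain of type I collagen, and Mmp2, a gelatinase. The collagen chain had a DKO effect of 0.04 (log2) at day 3 and -1.51 at day 6 (difference 1.56 ± 0.24, adjusted p = 0.0298), and Mmp2 had 0.22 and -1.19 (difference 1.42 ± 0.23, adjusted p = 0.0395). Of the 51 genes called at day 3, 1 was called in the interaction with day 0 and 4 in that with day 6 (Gm8730, Gm9625, Apoe and Apoc1). The smallest p-value against day 6 belonged to Pttg1, the securin gene, with a DKO effect of -0.12 at day 3 and 2.95 at day 6 (difference -3.06 ± 0.14, adjusted p = 2.8e-06). Leaving out 1 library gave 0 or 1 call against day 0 and 6 to 87 calls against day 6, the fewest without day 6 WT replicate 3 and the most without day 6 DKO replicate 2. With libraries of the same genotype and replicate number blocked across the days there were 0 calls against day 0 and 8 against day 6.

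The rest of the adipocyte programme was read through lists of genes, most of whose members were not called. Of 28 tested adipocyte lipid genes, Apoe and Apoc1 were called higher, where 0.165% of all tested genes were called higher. For 23 of the 28 all DKO libraries were above all WT libraries (82.1%, against 11.1% of all tested genes), and for none were they below. Their median log2 fold change was 1.64. Among 9 adipocyte markers none was called, yet all 9 had DKO above WT without overlap, with a median of 1.63. Cidec, a lipid droplet protein, was at 30.2, 90.0 and 63.6 CPM in WT and 278, 214 and 182 CPM in DKO libraries (1.88 ± 0.40, adjusted p = 0.144). Lipe, the hormone-sensitive lipase, was at 34.5, 96.2 and 76.6 CPM in WT and 177, 243 and 223 CPM in DKO libraries (1.63 ± 0.37, adjusted p = 0.162). In both genes WT replicate 1 was the lowest library. Without that library the numbers of lipid genes and of markers without overlap, which cannot fall, were also 23 and 9. The share of all tested genes with DKO above WT was then 14.6%. DESeq2 called 16 of the 28 lipid genes and 7 of the 9 markers higher, and none lower, against 1.82% and 0.88% of all tested genes.

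Fatty acid and triglyceride synthesis had 2 called genes of 20 tested, Me1 and Lpin1, and a median of 0.77, with 11 genes above (55.0%) and 2 below WT (10%) without overlap, against 11.1% and 7.47% of all tested genes, and the same counts without WT replicate 1. Over all tested genes 0.337% were called. Fasn and Dgat2, named here after their values were seen, were at 473, 618 and 569 against 868, 944 and 907 CPM and at 16.9, 41.7 and 34.6 against 101, 109 and 97.0 CPM (adjusted p = 0.0839 and 0.104). In fatty acid beta-oxidation 23 of 27 genes were above WT without overlap (85.2%, against the same 11.1%) and 1 below, with a median of 0.55 and no call. Cpt2, the inner carnitine palmitoyltransferase, was at 39.8, 47.2 and 51.1 CPM in WT and 73.0, 94.8 and 88.7 CPM in DKO libraries (0.89 ± 0.13, adjusted p = 0.0657), and Acad11, an acyl-CoA dehydrogenase, had 0.48 ± 0.07 (adjusted p = 0.0569).

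Mitochondrial genes lay in the same direction with smaller values, and their shares without overlap are to be read against 11.1% of all tested genes above WT and 7.47% below. Of 22 genes of the TCA cycle and pyruvate entry, 19 were above WT without overlap (86.4%) and none below (median 0.45), and Pdhb, a subunit of pyruvate dehydrogenase, had 0.76 ± 0.15 (adjusted p = 0.121). Of 49 nuclear genes of oxidative phosphorylation 37 were above (75.5%) and none below (median 0.31), and Ndufv1, the NADH-binding subunit of complex I, had 61.7, 73.8 and 65.4 CPM in WT and 88.6, 102 and 106 CPM in DKO libraries (0.56 ± 0.10, adjusted p = 0.097). Of the 13 genes of the mitochondrial genome 4 were above (30.8%) and none below (median 0.19). No gene of these 3 lists was called. DESeq2 called 9 genes of beta-oxidation, 5 of the TCA cycle and 2 of oxidative phosphorylation higher and none lower, where it called 1.82% of all tested genes higher. The counts of genes without overlap in beta-oxidation, the TCA cycle and both oxidative phosphorylation lists were the same without WT replicate 1.

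**Figure D4:**
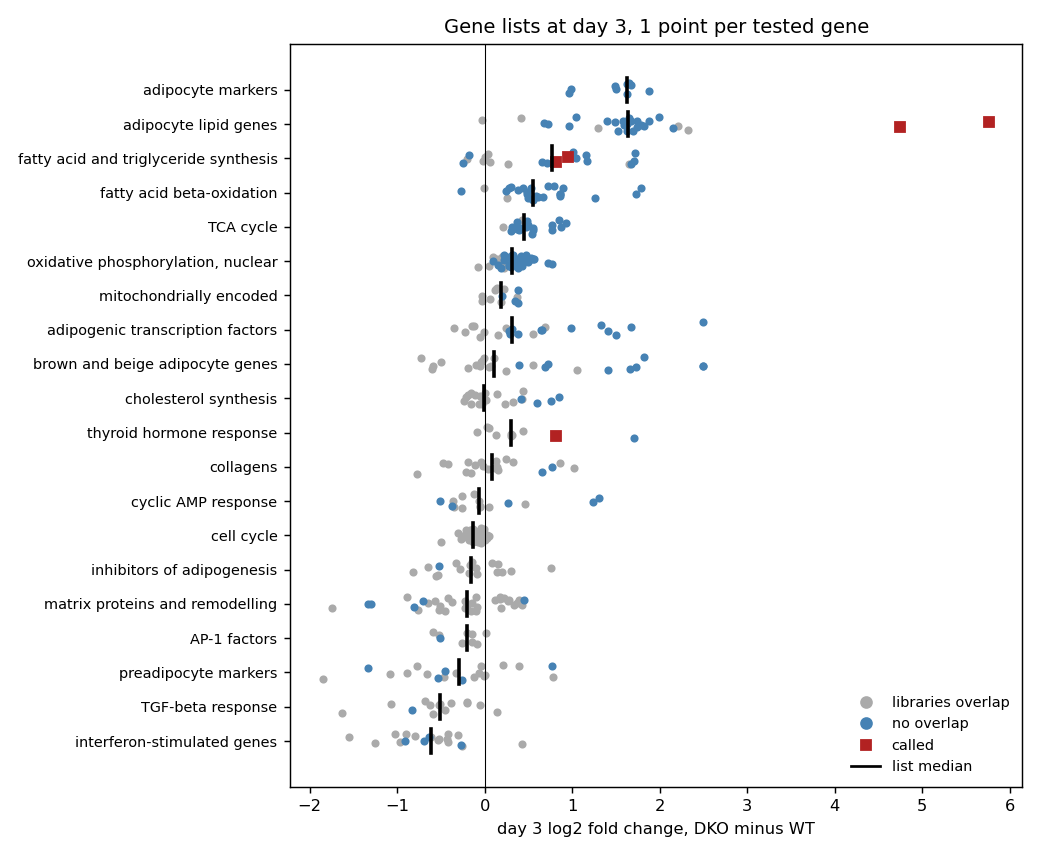
Day 3 log2 fold change (DKO minus WT) of the tested genes of 20 lists, 1 point per gene, with black bars at the list medians. Red squares are called genes, blue points have no overlap between the 3 DKO and 3 WT libraries, and grey points overlap. Lipid and mitochondrial lists lie mostly to the right of 0 (medians from 0.19 to 1.64), with few called genes.

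Transcription factors of adipogenesis lay on both sides of 0, with 17 of 23 above it. Among them, 12 were above WT without overlap (52.2%, against 11.1% of all tested genes) and none below, the same without WT replicate 1, with a median of 0.31 and no call. Pparg was at 12.3, 24.3 and 19.8 CPM in WT and 33.0, 42.4 and 36.7 CPM in DKO libraries (0.99 ± 0.25, adjusted p = 0.185). Cebpa was at 25.9, 61.3 and 56.5 CPM in WT and 110, 153 and 144 CPM in DKO libraries (1.5 ± 0.33, adjusted p = 0.152). The smallest p-value of the list belonged to Nr1h3, which encodes the sterol receptor LXRα, at 7.74, 9.32 and 7.77 against 12.7, 13.2 and 13.1 CPM (0.65 ± 0.12, adjusted p = 0.0956). DESeq2 called 7 of the 23 higher, among them Pparg, Cebpa, Nr1h3 and Ppargc1a, where it called 1.82% of all tested genes higher.

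Genes of brown and beige adipocytes were divided, with 15 of 25 tested above 0 and 10 below, and a median log2 fold change of 0.11. The median was 0.09 with DESeq2 and with library size scaling, and 0.27 with limma-voom. It was 0.23 in 1 fit over all days, where 33 genes of the list were tested. Ucp1, the uncoupling protein, had 0.0481, 0.0928 and 0.357 CPM in WT and 0.0358, 0.922 and 1.23 CPM in DKO libraries and did not pass the filter, nor did Cidea and Ear2. Ppargc1a, the coactivator of mitochondrial biogenesis, was at 0.240, 0.742 and 1.11 CPM in WT and 2.68, 5.45 and 3.93 CPM in DKO libraries (2.49 ± 0.52, adjusted p = 0.136). Elovl3, a fatty acid elongase of brown fat, was at 1.54, 6.73 and 6.45 CPM in WT and 14.2, 44.4 and 25.0 CPM in DKO libraries (2.49 ± 0.63, adjusted p = 0.193). Cox7a1 and Ppara, a cytochrome oxidase subunit of brown fat and muscle and the receptor that governs fatty acid oxidation, had 1.06 ± 0.41 and 1.41 ± 0.44 (adjusted p = 0.368 and 0.261). Of the 25 genes 9 were above WT without overlap (36%, against 11.1% of all tested genes) and none was below, and 11 were above without WT replicate 1 (44.0% against 14.6%). Of the 25, DESeq2 called 4 higher (Adrb3, Cpt1b, Elovl3 and Ppargc1a), where it called 1.82% of all tested genes higher.

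The lists that stood on the other side of 0 held fewer genes without overlap. Of 35 tested matrix genes 4 were below WT without overlap and 1 above (median -0.20), among them Thbs1, thrombospondin 1, at 3616, 3026 and 3293 CPM in WT and 1760, 2126 and 2198 CPM in DKO libraries (-0.71 ± 0.13, adjusted p = 0.101). Tnc, tenascin C, was at 1531, 2644 and 2100 against 932, 1455 and 1212 CPM (-0.80 ± 0.24, adjusted p = 0.254). Over all tested genes 7.47% lay below WT without overlap. Collagens were mixed (median 0.08), with Col6a3 and Col15a1 above WT and Col1a2 and Col3a1 overlapping. The share of collagens above WT without overlap was 10%, against 11.1% of all tested genes. Among 20 preadipocyte markers 4 were below and 1 above (median -0.29), or 5 and 2 without WT replicate 1 (25.0% and 10%, against 11.9% and 14.6% of all tested genes), and Anxa3, an annexin that binds membranes in the presence of calcium, was at 136, 90.3 and 72.0 CPM in WT and 48.5, 32.3 and 37.3 CPM in DKO libraries (-1.33 ± 0.27, adjusted p = 0.131). No gene of these lists was called, and DESeq2 called Thbs1, Tnc and Anxa3 lower and Col6a3 higher. Over all tested genes DESeq2 called 0.88% lower and 1.82% higher. Interferon-stimulated genes had a median of -0.61 with 18 of 19 tested below 0, but 4 were below WT without overlap and none was called. Without WT replicate 1 the count was 11 (57.9%), where 11.9% of all tested genes lay below. That library was the lowest of the WT libraries for this list too, so leaving it out can only raise the count. The list medians relative to the WT mean were -0.34, -0.10 and 0.43 in WT and -0.63, -0.32 and -0.18 in DKO libraries.

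Factors of the AP-1 family, which act on many preadipocyte enhancers, showed no call in 9 tested genes (median -0.21). Fos was at 33.1, 25.2 and 25.5 CPM in WT and 21.5, 17.7 and 19.5 CPM in DKO libraries (-0.51 ± 0.14, adjusted p = 0.2). Fos alone did not overlap, which is 11.1% of the list below WT against 7.47% of all tested genes. Fosl2, which encodes FRA2, had -0.09 ± 0.12 (adjusted p = 0.837) and Jun -0.21 ± 0.14 (adjusted p = 0.64), with overlapping libraries in both. Junb and Fosl1 overlapped as well. In the TGF-beta list 1 of 14 genes, Ccn1, was below WT without overlap (median -0.51), a share of 7.14% that lies near the 7.47% of all tested genes. All 33 cell cycle genes overlapped (median -0.13). Without WT replicate 1, 17 of these 33 (51.5%) lay below the remaining 2 WT libraries, as did 11.9% of all tested genes. That library was the lowest of the WT libraries for this list, so leaving it out can only raise the count. The list medians relative to the WT mean were -0.23, 0.05 and 0.18 in WT and -0.27, -0.01 and -0.02 in DKO libraries.

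Of 25 genes that the study names for these cells 22 were tested, and Hmgn1, Hmgn2 and Galnt9 were called, all lower. Over all tested genes 0.172% were called lower. Some of the 25 are the deleted genes or were known beforehand and others may have been picked on these samples, so the list is no independent evidence. Ide, the insulin-degrading enzyme, had 0.93 (log2, adjusted p = 0.16), and Pnp2, a purine nucleoside phosphorylase, -2.58 (adjusted p = 0.239). Mmp3, a stromelysin, stood at -0.89 (adjusted p = 0.564), the aggrecanase gene Adamts5 at 0.18 and the taurine transporter gene Slc6a6 at -0.17, none of them called.

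Responses to the agents in the medium were looked at separately. None of 16 glucocorticoid-responsive genes was called or free of overlap (median 0.02). Of 15 tested genes of the cyclic AMP response none was called, and 3 lay above (20%) and 2 below WT (13.3%) without overlap, against 11.1% and 7.47% of all tested genes. Pde3b, the phosphodiesterase through which insulin restrains lipolysis, was at 41.0, 68.1 and 73.9 CPM in WT and 134, 157 and 142 CPM in DKO libraries (1.24 ± 0.22, adjusted p = 0.1). Of 10 genes of the thyroid hormone response Me1 alone was called, where 0.337% of all tested genes were called, and the median was 0.30. Me1 also belongs to the list of fatty acid and triglyceride synthesis. In the thyroid list 2 genes lay above WT without overlap (20%, against the same 11.1%) and none below. Cholesterol synthesis had a median of -0.01 with 4 of 22 genes above WT (18.2%, against the same 11.1%), of which Hmgcs1 had 0.85 ± 0.14 (adjusted p = 0.0839). Inhibitors of adipogenesis (18 tested), the unfolded protein response (19 tested) and histones (11 tested) had medians of -0.16, -0.04 and -0.03 and no called gene.

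Genes that change during normal differentiation gave the widest view, because they were chosen without day 3 libraries, from WT cells at day 6 against day 0 (adjusted p under 0.05 and a log2 difference of 2 or more either way). Of 1233 such genes that rose, 904 were tested at day 3, and their median DKO effect was 0.51 (log2), with 81.0% above 0 against 48.7% of all tested genes. DKO lay above WT without overlap for 42.4% of them and below for 1.66%. Of 1517 genes that fell, 1303 were tested, with a median of -0.34, 16.5% above 0, and DKO below WT without overlap for 15.2% and above for 1.3%. The medians of the rising genes, relative to the WT mean, were -0.23, 0.11 and 0.09 in WT and 0.33, 0.61 and 0.50 in DKO libraries, and those of the falling genes were 0.19, -0.02 and -0.17 in WT and -0.11, -0.41 and -0.32 in DKO libraries. The groups did not overlap for the rising genes, while DKO replicate 1 lay within the WT range for the falling ones. Without WT replicate 1 the shares without overlap were 44.6% and 18.3%, where 14.6% and 11.9% of all tested genes were above and below. The medians were then 0.43 and -0.20, and with a 2-fold limit on the change in WT cells they were 0.27 and -0.21.

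**Figure D5:**
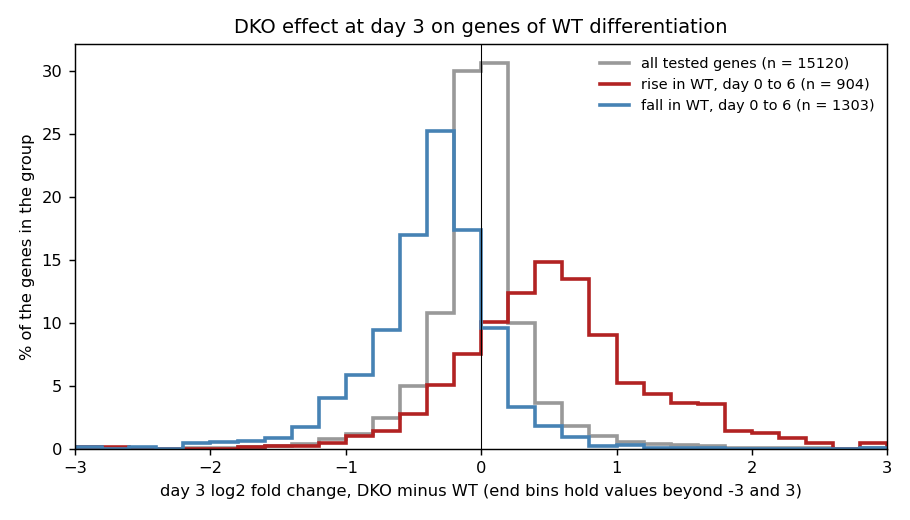
Distribution of the day 3 log2 fold change (DKO minus WT, bins of 0.2) in all 15120 tested genes (grey), in 904 genes that rise in WT cells from day 0 to day 6 (red) and in 1303 that fall (blue), as a percentage of each group. The red curve lies to the right of the grey one (median 0.51) and the blue curve to the left (median -0.34).

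Few of these genes were called one by one. Of the 25 genes called higher (0.165% of all tested), 12 were among the 904 rising genes (Apoe, Apoc1, Fgfrl1, Smoc1, Cav1, Lpin1, Arl4a, Nabp1, Chpt1, Lyrm7, Map7d2 and Aifm2), and none of the rising genes was called lower. Of the 1303 falling genes 3 were called lower (0.172% over all tested genes), namely H2-T10, Lama1 and Raet1d, and H2-T22 was called higher. With DESeq2, 215 rising genes were called higher and 4 lower, and 45 falling genes were called lower and 1 higher, against 1.82% of all tested genes called higher and 0.88% called lower.

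Markers of cell types that a fat digest can hold were summed in each library. Preadipocyte markers stood at 6231, 4878 and 5186 CPM in WT and 5345, 4763 and 5543 CPM in DKO libraries, so the groups overlapped. No T cell marker of the list passed the filter, and Cd3e and Cd3d, subunits of the T cell receptor complex, were at 0 in all 6 libraries. Endothelial markers summed to between 17.2 and 35.4 CPM in WT and 9.38 and 26.3 CPM in DKO libraries, and smooth muscle markers to between 972 and 1577 CPM in WT and 540 and 1032 CPM in DKO libraries. Epithelial markers, with Krt14 and Krt5 at 0, summed to between 0.892 and 1.54 CPM in WT and 0.0793 and 0.419 CPM in DKO libraries. Schwann cell markers summed to between 87.0 and 239 CPM in WT and 65.8 and 179 CPM in DKO libraries, and skeletal muscle markers, of which 2 of 10 were tested, to between 6.78 and 10.6 CPM and 4.62 and 9.72 CPM. None of the tested markers of these types was called by edgeR, while DESeq2 called Anxa3, Flt1 and Krt18 lower, as it did 0.88% of all tested genes. Among the types with a tested marker, the adipocyte and epithelial sums did not overlap between the groups and the others did. The part of cell composition in the list values was not tested.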

How the data were processed

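Strand-specific 50 bp paired-end RNA-seq was used for all libraries. Per the study's methods, the authors used cutadapt 1.18 for trimming, STAR 2.7.0f for alignment (mm10) and RSEM 1.3.0 for expected counts per gene. The deposited values are expected counts, not normalized, which RSEM splits among genes that share sequence. They were rounded to whole numbers here, and gene names came from GENCODE M21, which matched all 55450 identifiers. Genes were filtered with filterByExpr, scaled by TMM and tested with edgeR 4.0.16 (quasi-likelihood, robust) on the 6 day 3 libraries, with Benjamini-Hochberg adjustment. Alternatives were DESeq2 1.42.0, limma-voom 3.58.1, other filters and scaling, 1 fit over all days, a replicate block and leaving out each library. The interaction of genotype and day used 12 libraries per pair of days. Scripts were tested on simulated data. Named by rule were Hmgn1, Hmgn2, the genes the study names, the first 12 called genes per direction by p-value and, per list, called members or else up to 4 with the smallest p-value. Other genes were named after their values were seen. The members and lists were chosen with earlier results of these data known. Counts without WT replicate 1 and sums over copies were added after the data were seen. Replicates were compared and none was a repeat of another.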

Additional observations from a re-analysis of the deposited data

Results flagged for a closer look

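The DKO effect at day 3 was set against that at day 0 and day 6 of the same cells by a test of the difference itself (edgeR, interaction of genotype and day, Benjamini-Hochberg adjusted), which passed for 2 genes against day 0 and 51 against day 6. Against day 0 these were Nabp1, whose effect was greater by 1.57 on the log2 scale (adjusted p = 0.0272), and Psmd8, greater by 0.70 (adjusted p = 0.0272). With libraries of the same genotype and replicate number blocked across the days, 0 and 8 genes passed.

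Against day 6, the following genes had a more positive DKO effect at day 3. The pseudogenes Gm9625 and Gm8730 differed by 1.31 (adjusted p = 0.000642) and 1.5 (adjusted p = 0.000738), being lower in DKO cells at both days. Apoe differed by 3.49 (adjusted p = 0.02) and Apoc1 by 3.18 (adjusted p = 0.0413). Col1a2 differed by 1.56 (adjusted p = 0.0298) and Mmp2 by 1.42 (adjusted p = 0.0395), from day 6 effects of -1.51 and -1.19.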

How the results depend on the processing

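Against the 51 genes called at day 3 (25 higher, 26 lower), DESeq2 called 408 (275 and 133), no filter on low counts 155 (114 and 41) and 1 fit over all days 396 (292 and 104). A log2 threshold of 1 left 16 higher genes. Leaving out 1 library gave 13 to 28 (4 to 14 higher, 9 to 15 lower), the fewest without DKO replicate 2. The interaction with day 0 (2 genes) gave 4 with no filter, 16 in 1 fit, 71 with DESeq2 and 0 to 1 with a library left out. That with day 6 (51 genes) gave 117, 86, 581 and 6 to 87, the extremes without day 6 WT replicate 3 and without day 6 DKO replicate 2. The cause was not tested. Genes rising 2-fold in WT differentiation had a median of 0.27.

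WT and DKO libraries of day 3 with the same number correlated in their deviations at 0.473, 0.0256 and 0.569. These values do not settle whether the numbers pair the genotypes, and the main test used no pairing. Day 3 and day 0 libraries of the same number correlated at -0.128, -0.1 and 0.489 in WT and at 0.595, 0.439 and 0.534 in DKO cells. The correlation was thus positive in every DKO replicate but, in WT cells, in replicate 3 alone. Between day 3 and day 6 it was -0.0604 to 0.192 over both genotypes. At day 3, a block joining WT and DKO libraries of the same number gave 278 calls (205 higher, 73 lower). In the interactions the block instead joined libraries of the same genotype and number across the days. The interaction with day 0 then had 0 calls (edgeR, with 1252 genes at an unadjusted p under 0.05 against 997 without the block) and that with day 6 had 8.

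No called gene changed sign under any alternative run. Of uncalled genes, Fosl1 turned to -0.0017 with library size scaling and Col3a1 to -0.00 with limma-voom. With a library left out, log2 fold changes ranged from -0.25 to 0.27 for Fosl1, -0.080 to 0.41 for Col3a1, -0.076 to 0.43 for Adamts5, -0.10 to 0.17 for Col1a2, -0.32 to 0.027 for Slc6a6 and -0.28 to 0.022 for Junb. Depth limits the genes at the floor, whose folds are bounds only.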
